A study of Homo sapiens with 6 samples.

Results

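Cholesterol and fatty acid synthesis genes were followed in RCC4 cells with and without inflammatory cytokines. The 35 members were chosen by gene symbol, as enzymes, regulators and sterol handling genes of the 2 lipid pathways, with earlier results of these data known. Each symbol matched 1 of the 61541 gene rows in the deposited tables. Of the 35, 31 passed the filter on low counts and were tested together with all 10067 genes that passed it. The 4 that did not pass were CH25H, ABCA1, CYP51A1 and TM7SF2.

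RCC4 is an established human line of clear cell renal cell carcinoma, a kidney tumour named for its lipid-laden, pale cytoplasm. Untreated cells (3 libraries) were compared with cells given interferon gamma (IFNγ) at 1000 U/mL and tumour necrosis factor (TNF) at 25 ng/mL for 24 h (3 libraries). Both groups grew in the same serum-containing medium, and each biological replicate came from 3 T75 flasks. Native poly(A) RNA molecules were read by direct RNA nanopore sequencing, 1 flow cell per library. The results describe 1 line in medium with serum.

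Cholesterol is built from acetyl-CoA through mevalonate, isoprenoid pyrophosphates, squalene and lanosterol. Fatty acids are built from the same precursor by carboxylation, chain growth, elongation and desaturation. The SREBP transcription factors switch on both pathways. SCAP escorts SREBP out of the endoplasmic reticulum when sterols are low, and the INSIG proteins hold it back when sterols are high. Oxysterols feed this brake and activate the LXR receptors, which promote cholesterol export. Interferons are known to touch the pathway through CH25H, the enzyme that makes 25-hydroxycholesterol in macrophages.

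Library totals ran from 3626000 to 4406296 counts. Levels are given as CPM, the counts of a gene scaled to 1000000 counts of the TMM-normalised library size. A gene without a read could still lie at up to 3 counts, which is 0.677 to 0.866 CPM on that scale depending on the library, for counting error alone. All 8 markers of renal carcinoma cells had counts, and of 11 markers of immune, endothelial, stromal and liver cells only CD14 had any, with 2 counts over the 6 libraries. All 5 genes checked for a cytokine response were called higher. Over all genes, edgeR's quasi-likelihood test called 562 higher and 257 lower at a Benjamini-Hochberg adjusted p under 0.05 (485 and 364 when libraries were scaled by their totals alone, under which the median gene sat at -0.13 on the log2 scale instead of -0.03). Untreated replicate 3 stood apart on the second principal component, which held 27.1% of the variance, at -49.5 against 35.3 and 7.3 for the other untreated libraries. On the same component treated replicate 1 lay at 34, against -17.9 and -9.22 for treated replicates 2 and 3.

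Among the 31 tested members, 2 fell and 0 rose after cytokine exposure. The 2 were DHCR7, the last enzyme of one branch of cholesterol synthesis, and FADS2, the delta-6 fatty acid desaturase. Of all tested genes, 2.55% were called lower and 5.58% higher (8.14% in either direction), so the count of calls among the members lay near the background. At an unadjusted p under 0.05, 6 members were lower (8.85% of all genes) and 2 were higher (11.0% of all genes). No member was called higher by DESeq2 or by limma voom either. The groups did not overlap in CPM for 7 tested members that were lower (12.0% of all genes) and for 1 that was higher (13.9% of all genes). The median log2 fold change over the 31 members was -0.18, against -0.03 over all tested genes.

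**Figure D1:**
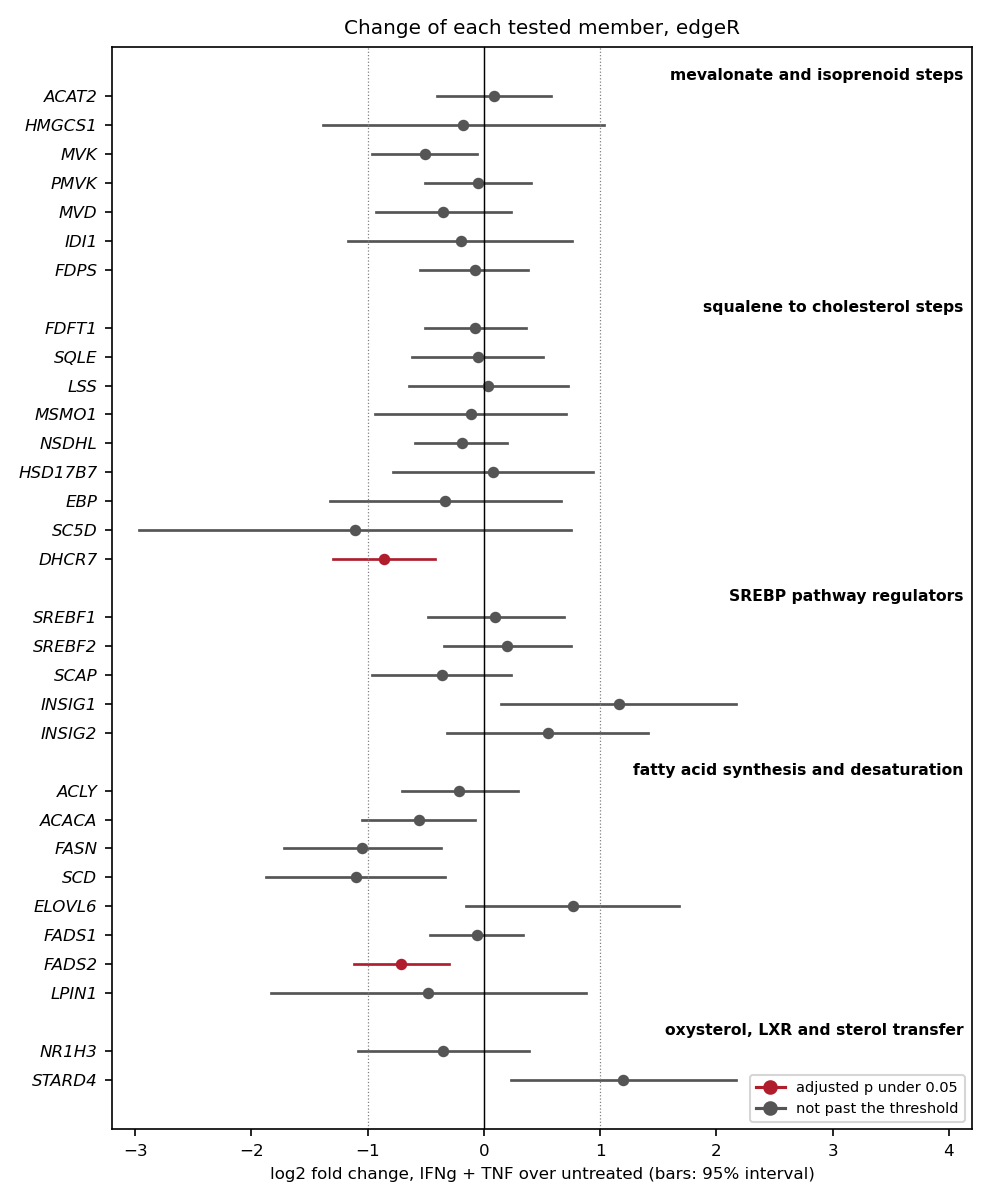
log2 fold change of each of the 31 tested members (IFNγ and TNF over untreated, x axis), by role, with points for the edgeR estimate and bars for the 95% interval; dotted lines mark a 2-fold change. DHCR7 and FADS2, in red, had adjusted p of 0.0266 and 0.0456, and 16 of the 31 intervals lie within a 2-fold change in either direction.

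The width of the intervals sets what these libraries could show. For 16 of the 31 members the 95% interval lay wholly within a 2-fold change either way. For the other 15 it reached past 2-fold on at least 1 side, so the data allow a change of that size for them.

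DHCR7 (ENSG00000172893; chromosome 11, 71428193 to 71452868, minus strand) encodes 7-dehydrocholesterol reductase, which turns 7-dehydrocholesterol into cholesterol. Untreated replicates 1, 2 and 3 had 130.1, 122 and 115 CPM, and treated replicates 1, 2 and 3 had 73.6, 52.6 and 75.6 CPM. Every treated library lay below every untreated one. The mean went from 122 ± 7.69 to 67.3 ± 12.8 CPM (SD, n = 3 each), 1.82-fold lower. The log2 fold change was -0.86 (SE 0.19, 95% interval from -1.30 to -0.42), with an edgeR adjusted p of 0.0266. In bulk RNA, fewer molecules per cell and fewer cells with the transcript cannot be told apart.

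The call of DHCR7 was lost without any 1 of 5 libraries. The edgeR adjusted p of DHCR7 was 0.0657, 0.128 and 0.0725 without treated replicate 1, 2 or 3, and 0.112 and 0.111 without untreated replicate 1 or 2. It was 0.0137 without untreated replicate 3. Its log2 fold change stayed between -0.97 and -0.66 over 14 alternative fits.

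The window before the DHCR7 start holds a pair of CCAAT motifs, the letters bound by NF-Y, a factor known to act beside SREBP at many sterol genes. They are shown because DHCR7 is the sterol enzyme among the members that passed the test. CCAAT is not particular to DHCR7. It was in 35.7% of the 300-base windows of 27305 genes and in 17 of 31 member windows. The uncalled sterol enzymes NSDHL and MSMO1 are among the 17. The sequences are RefSeq's, build GRCh38.p14, minus strand, at chr11:71448470-71448499 and chr11:71448424-71448453, from the first of 2 listed starts. Capitals mark the motif, read on either strand. Both stretches lie within the annotated span of DHCR7. Of the 250 bases before this start, 124 lie in exons of the deposited annotation.
DHCR7, 94 bases before the start: caggctcctcgaCCAATcacggggcgcgga
DHCR7, 48 bases before the start: ggtccgcctccgATTGGcaggcaatcgctg

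Of the other squalene to cholesterol enzymes, 8 were tested, and none passed the threshold in edgeR, DESeq2 or limma voom, or an unadjusted p under 0.05 in edgeR. FDFT1, which makes squalene, had 158, 148 and 116 CPM in untreated and 131, 116 and 153 CPM in treated libraries (log2 fold change -0.08, 95% interval from -0.51 to 0.36). SQLE, the squalene epoxidase and a control point of the pathway, had 29.8, 19.9 and 36.2 CPM in untreated and 27.1, 28.4 and 27.4 CPM in treated libraries. Its log2 fold change was -0.05, with an interval from -0.62 to 0.51. In both genes the groups overlapped throughout.

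LSS, which closes the sterol rings to lanosterol, had a log2 fold change of 0.04, and treated replicate 3 was its highest library at 67.9 CPM. NSDHL, a dehydrogenase of the C4 demethylation complex, had 94.8, 103 and 90.9 CPM in untreated and 89.2, 73.1 and 90.4 CPM in treated libraries. Its groups did not overlap, but they came within 1 CPM of each other, and the log2 fold change was -0.19 (edgeR adjusted p 0.649). MSMO1 and HSD17B7, which act in the same complex of steps, had log2 fold changes of -0.11 and 0.08. EBP, the sterol isomerase, was counted 18, 17 and 13 times in untreated and 17, 12 and 7 times in treated libraries (log2 fold change -0.33). ENSG00000286268, a gene annotated on its strand with 0 counts in every library, shares 36.4% of the exonic bases of EBP.

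SC5D, the lathosterol oxidase that acts just before DHCR7, had the widest interval of the members, from -2.97 to 0.75 around a log2 fold change of -1.11. Its untreated libraries had 1.05, 5.43 and 20.0 CPM, and its treated libraries had 2.02, 5.64 and 4.56 CPM. Untreated replicate 3 alone lay above all treated libraries. Without untreated replicate 3 the log2 fold change was 0.34.

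A pair of enzymes in these steps could not be tested. CYP51A1, the lanosterol demethylase, had 2 counts in all, 1 in untreated replicate 1 and 1 in treated replicate 3. ENSG00000285772 and ENSG00000289027, 2 genes annotated on its strand, share 68.2% of its exonic bases, and both of those genes had 0 counts in every library. By the counting program's default, a read touching exons of more than 1 gene is left uncounted. The part of this default in the low counts of CYP51A1 and EBP was not tested. In both genes, 0.0% of the last 500 exonic bases at the 3 prime end are shared. TM7SF2, a sterol reductase, was counted 7, 16 and 23 times in untreated and 5, 4 and 6 times in treated libraries. Every treated library was below every untreated one in CPM. The closest were untreated replicate 1 at 1.83 and treated replicate 3 at 1.71 CPM, from 7 and 6 counts. With no filter the log2 fold change of TM7SF2 was -1.44 (edgeR adjusted p 0.131).

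**Figure D2:**
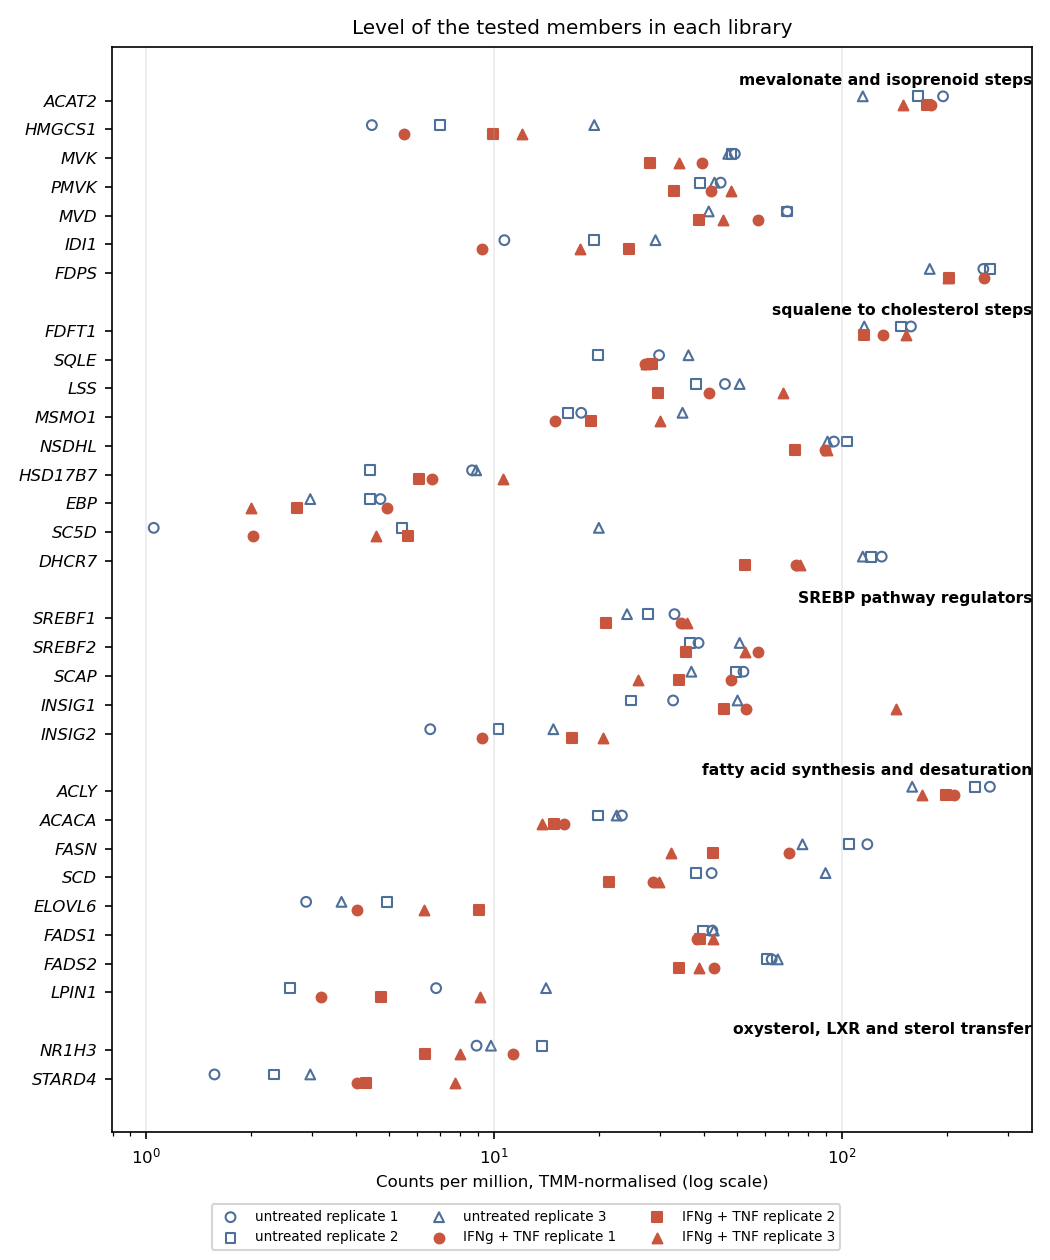
CPM of each tested member in every library (x axis, log scale), by role, with open blue symbols for untreated and filled red symbols for cytokine-treated libraries; shapes mark replicates 1, 2 and 3. The DHCR7 and FADS2 groups are separate, whereas for SC5D, HMGCS1 and LPIN1 untreated replicate 3 is the highest of the 6 libraries.

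Of the mevalonate and isoprenoid steps, all 7 genes were tested and none passed the threshold in edgeR, DESeq2 or limma voom. MVK, mevalonate kinase, alone had an unadjusted p under 0.05. It had 49.2, 48.1 and 47.1 CPM in untreated and 39.6, 28.0 and 33.9 CPM in treated libraries, which did not overlap. Its log2 fold change was -0.51 (95% interval from -0.96 to -0.06), with an edgeR adjusted p of 0.184.

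HMGCS1, the cytosolic HMG-CoA synthase and a classical SREBP target, had 4.45, 6.98 and 19.4 CPM in untreated and 5.49, 9.93 and 12.0 CPM in treated libraries. Its log2 fold change was -0.18, and it was 0.67 without untreated replicate 3. IDI1, the isopentenyl diphosphate isomerase, showed the same order of untreated libraries, at 10.7, 19.4 and 29.1 CPM, and had 9.24, 24.4 and 17.7 CPM after treatment. FDPS, which makes farnesyl diphosphate, had 255, 267 and 179 CPM in untreated and 256, 203 and 202.2 CPM in treated libraries. ACAT2, the acetyl-CoA thiolase at the entry, had a log2 fold change of 0.09. PMVK and MVD, the kinase and decarboxylase after MVK, had -0.05 and -0.35, with intervals from -0.51 to 0.41 and from -0.93 to 0.23.

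For the regulators, all 5 were tested and 0 passed the threshold in edgeR as reported, DESeq2 or limma voom. INSIG1 alone had an unadjusted p under 0.05 in edgeR, and it was higher. Of all tested genes, 11.0% were higher at that unadjusted p. The transcripts of the pathway's own transcription factors overlapped between groups. SREBF1, which encodes the SREBP tied to fatty acid genes, had 33.0, 27.7 and 24.1 CPM in untreated and 34.4, 21.0 and 35.9 CPM in treated libraries. SREBF2, which encodes the SREBP tied to sterol genes, had 38.7, 36.5 and 50.8 CPM in untreated and 57.5, 35.7 and 52.5 CPM in treated libraries. Their log2 fold changes were 0.10 and 0.20, and both intervals lay within a 2-fold change. SCAP, the escort, had a log2 fold change of -0.36 (95% interval from -0.96 to 0.23).

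INSIG1, the sterol-responsive brake on SREBP, had 32.7, 24.8 and 50.1 CPM in untreated and 52.9, 45.8 and 143 CPM in treated libraries. Treated replicate 3 was far above the rest, and treated replicate 2 lay below untreated replicate 3. The log2 fold change was 1.16 (SE 0.45, 95% interval from 0.15 to 2.17), with an edgeR adjusted p of 0.182, and it was 0.46 without treated replicate 3. The edgeR adjusted p of INSIG1 was 9.02e-05 with no filter, 0.000667 with the replicate number as a block and 0.0246 with a surrogate variable. In the other 11 alternatives, DESeq2 and limma voom among them, the adjusted p of INSIG1 ran from 0.0508 to 0.633. INSIG2, the related brake, had 6.55, 10.3 and 14.8 CPM in untreated and 9.24, 16.7 and 20.5 CPM in treated libraries (log2 fold change 0.55, 95% interval from -0.32 to 1.41).

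Regulatory letters near these starts are printed for INSIG1, the regulator with the largest fold change, and SREBF2. ACAT2, FASN, FDFT1 and SQLE had no promoter entry and were not searched. The 31 members with an entry include the untested CH25H, ABCA1, CYP51A1 and TM7SF2. SREBF2 was the 1 member of 31 with a promoter entry whose 300-base window held TCACNCCAC, the letters of a sterol regulatory element. That motif, on either strand, was in 1.15% of the windows of 27305 genes. CCAAT was in 17 of the 31 member windows and in 35.7% of all windows. CACGTG, the E-box, was in 5 of 31 and 7.43%. TTCNNNGAA, the letters of a STAT gamma-activated site, was in 0 of 31 and 7.88%. No 2 of these motifs overlapped in the stretches shown. Windows run from 250 bases before to 50 after the first RefSeq start listed, and 10 of the 31 members have more than 1. Of the 250 bases before the start, 102 for INSIG1 and all 250 for SREBF2 lie in exons of the deposited annotation. The INSIG1 E-box stretch lies in an INSIG1 exon of that annotation. The entries are on GRCh38.p14, both on the plus strand, at chr7:155297696-155297725, chr7:155297811-155297840 and chr22:41832962-41832991, with the motif in capitals.
INSIG1, CCAAT, 170 bases before the start: cgccggcctcccATTGGttgcggccgcctc
INSIG1, E-box, 55 bases before the start: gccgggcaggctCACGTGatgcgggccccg
SREBF2, sterol regulatory element, 133 bases before the start: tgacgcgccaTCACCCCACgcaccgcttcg

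Fatty acid synthesis held the other call, and 4 of its 8 genes had groups that did not overlap, all lower after treatment (12.0% of all tested genes). All 8 were tested, with 1 called lower and 0 called higher (2.55% and 5.58% of all tested genes). At an unadjusted p under 0.05, 4 were lower and 0 were higher (8.85% and 11.0% of all tested genes), and 0 were called higher by DESeq2 or limma voom. The median log2 fold change was -0.52, against -0.03 for all genes.

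FADS2 (ENSG00000134824; chromosome 11, 61792980 to 61867354, plus strand) encodes the desaturase that starts the conversion of linoleic and alpha-linolenic acid to longer polyunsaturated fatty acids. It had 62.8, 61.0 and 65.4 CPM in untreated and 43.0, 33.9 and 38.8 CPM in treated libraries. The replicates were close together and the groups separate. The mean went from 63.1 ± 2.18 to 38.6 ± 4.59 CPM (SD, n = 3 each), 1.64-fold lower. The log2 fold change was -0.71 (SE 0.18, 95% interval from -1.12 to -0.30; edgeR adjusted p 0.0456).

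The FADS2 call lay close to the threshold. The edgeR adjusted p was 0.0814, 0.191 and 0.161 without treated replicate 1, 2 or 3, 0.163 and 0.153 without untreated replicate 1 or 2, and 0.0468 without untreated replicate 3. It was 0.0558 with DESeq2 size factors, 0.0949 with no filter and 0.0598 with a stricter filter, and the log2 fold change stayed between -0.82 and -0.57. FADS1 (chromosome 11, 61799627 to 61829318, minus strand), whose span lies within that of FADS2 on the other strand, encodes the delta-5 desaturase of the same conversion. It had 42.4, 39.8 and 42.8 CPM in untreated and 38.4, 39.0 and 42.5 CPM in treated libraries. FADS1 had a log2 fold change of -0.06 (95% interval from -0.46 to 0.34), and the difference between the 2 genes was not tested.

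FASN, the fatty acid synthase that builds palmitate, had 118, 104.7 and 77.0 CPM in untreated and 70.2, 42.7 and 32.2 CPM in treated libraries. No treated library reached an untreated one. The log2 fold change was -1.05 (SE 0.30, 95% interval from -1.72 to -0.37), and the edgeR adjusted p of 0.0686 missed the threshold. It was 0.0217, 0.247 and 0.245 without treated replicate 1, 2 or 3, and 0.167, 0.207 and 0.0132 without untreated replicate 1, 2 or 3. With library totals it was 0.0365, with no filter 0.000991 and with the replicate number as a block 0.000183. ACACA, the acetyl-CoA carboxylase that supplies FASN with malonyl-CoA, had 23.3, 19.9 and 22.5 CPM in untreated and 15.9, 14.9 and 13.7 CPM in treated libraries. Its groups were also separate, and its log2 fold change was -0.56 (edgeR adjusted p 0.177).

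SCD, the stearoyl-CoA desaturase that makes oleate, had 42.2, 38.0 and 89.7 CPM in untreated and 28.6, 21.4 and 29.7 CPM in treated libraries. Untreated replicate 3 stood far above the other untreated libraries, and the groups did not overlap. The log2 fold change was -1.10 (SE 0.34), with an edgeR adjusted p of 0.0945, and it was -0.60 without untreated replicate 3. FASN and SCD passed the threshold in DESeq2, at adjusted p of 0.0164 and 0.0317, and missed it in limma voom, at 0.0569 and 0.13.

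The stretch before the SCD start is shown because none of its bases lies in an exon of the deposited tables. The same holds for ABCA1, ACLY, CH25H, HSD17B7 and PMVK. The SCD stretch holds CCAAT motifs (in 35.7% of all windows), in capitals, that begin at -229 and -186 from the start. It is RefSeq's on GRCh38.p14, plus strand, chr10:100346983-100347232.
SCD: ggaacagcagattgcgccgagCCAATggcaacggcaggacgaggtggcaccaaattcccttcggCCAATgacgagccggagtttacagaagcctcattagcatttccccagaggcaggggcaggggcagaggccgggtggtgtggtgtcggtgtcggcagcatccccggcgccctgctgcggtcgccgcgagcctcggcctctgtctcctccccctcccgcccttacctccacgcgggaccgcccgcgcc

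The other 3 genes of the group overlapped between conditions. ACLY, which makes cytosolic acetyl-CoA from citrate, had 266, 242 and 159 CPM in untreated and 209, 199 and 169 CPM in treated libraries (log2 fold change -0.21). ELOVL6, the elongase for palmitate, went the other way, with 2.88, 4.91 and 3.64 CPM in untreated and 4.04, 9.03 and 6.27 CPM in treated libraries (log2 fold change 0.77, 95% interval from -0.15 to 1.68). LPIN1, a phosphatidate phosphatase on the route to triglyceride, ranged from 2.59 to 14.1 CPM among untreated libraries alone, with a log2 fold change of -0.48.

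**Figure D3:**
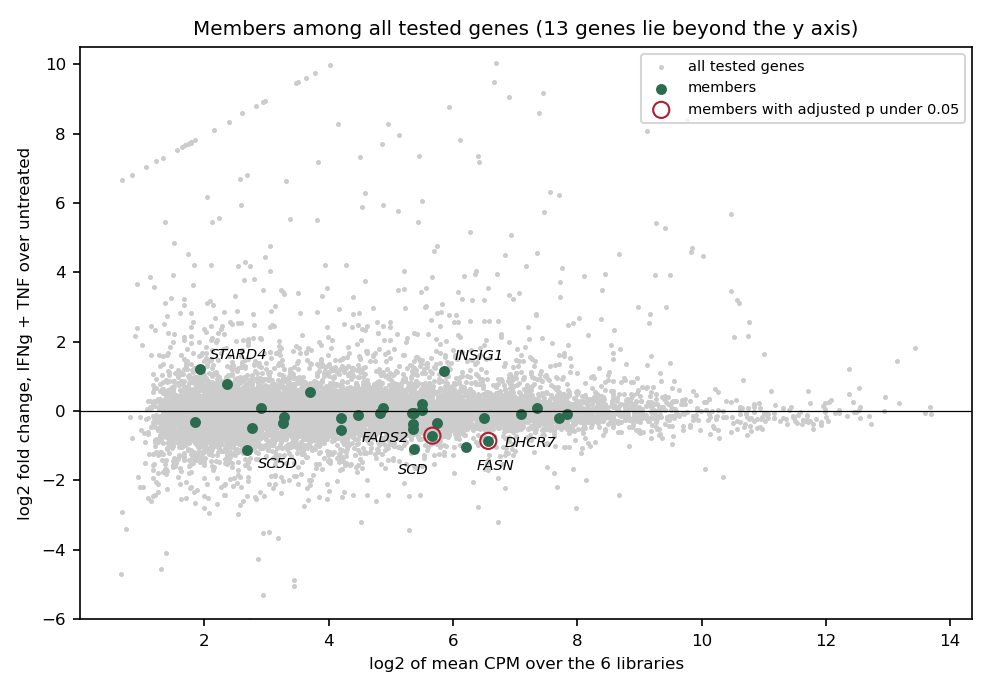
log2 fold change (y axis) against log2 of the mean CPM over the 6 libraries (x axis) for the 10067 tested genes in grey and the 31 members in green, with red rings on the 2 called members; 13 genes lie beyond the y axis. The members lie within the band of the other genes, between -1.11 for SC5D and 1.20 for STARD4.

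In the oxysterol, LXR and sterol transfer group, 2 of 4 genes had enough counts to be tested, and 0 passed in edgeR, DESeq2 or limma voom. CH25H, a single-exon gene on chromosome 10 (89205629 to 89207317), had 0 counts in all 6 libraries, which allows up to 0.677 to 0.866 CPM depending on the library. ABCA1, the cholesterol exporter under LXR control, was counted 2, 6 and 11 times in untreated and 2, 4 and 3 times in treated libraries. NR1H3, which encodes LXR alpha, had 8.90, 13.7 and 9.79 CPM in untreated and 11.3, 6.32 and 7.99 CPM in treated libraries (log2 fold change -0.35).

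STARD4, which carries cholesterol between membranes, was the 1 member whose treated libraries all lay above the untreated ones. It had 1.57, 2.33 and 2.96 CPM in untreated and 4.04, 4.29 and 7.70 CPM in treated libraries, from 6, 9 and 13 against 14, 19 and 27 counts. The difference on the log2 scale was 1.20 (SE 0.43, 95% interval from 0.23 to 2.17), with an edgeR adjusted p of 0.151.

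**Figure D4:**
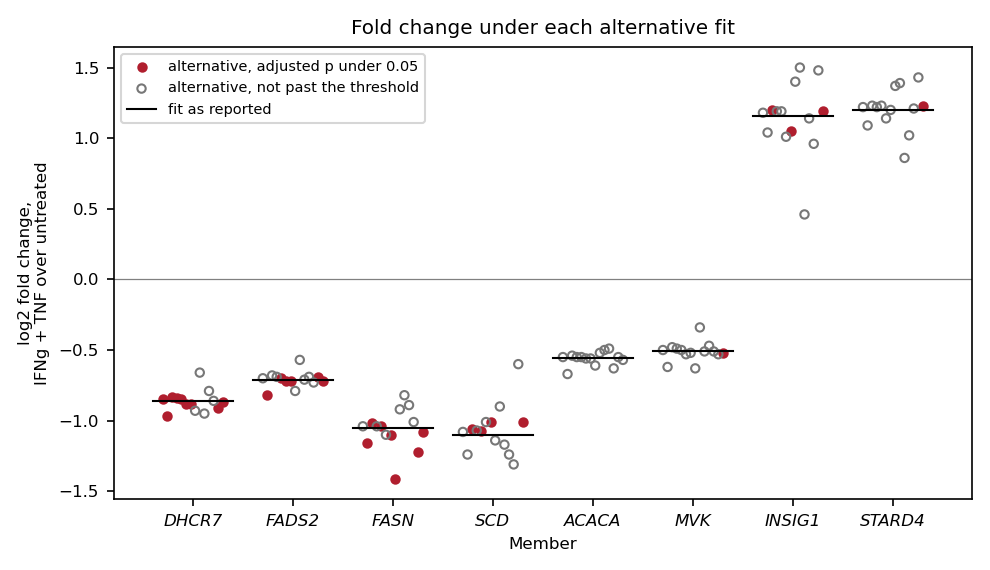
log2 fold change (y axis) of the 8 members with an unadjusted p under 0.05 (x axis) in each of 14 alternative fits, with red filled points where the adjusted p was under 0.05 and a black line for the fit as reported. All 8 kept their direction in these fits, and the value for INSIG1 that lies lowest, 0.46, is the fit without treated replicate 3.

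Summed over each role, the fatty acid genes did not overlap between conditions under any of the 3 scalings tried (TMM, library totals and DESeq2 size factors). Untreated replicates 1, 2 and 3 had 565, 513 and 474 CPM over the 8 genes, and treated replicates 1, 2 and 3 had 413, 364 and 342 CPM, a difference of the means of -27.9%. The 11 squalene to cholesterol genes summed to 493, 465 and 481 CPM in untreated and 393, 334 and 464 CPM in treated libraries, a difference of -17.3%. The median log2 fold change of the 9 tested was -0.11. In the mean of these sums, 479.5 CPM in untreated and 396.7 CPM in treated libraries, DHCR7 made up 122 and 67.3 CPM. Those sums did not overlap with TMM, where treated replicate 3 and untreated replicate 2 lay within 2 CPM of each other, or with library totals. They overlapped with DESeq2 size factors, at 464.2 in untreated replicate 2 and 471.9 in treated replicate 3. The 7 mevalonate genes overlapped, at 629, 615 and 474 CPM against 591, 512 and 509 CPM. The 5 regulators had 163, 149 and 177 CPM in untreated and 201.9, 153 and 278 CPM in treated libraries, where INSIG1 in treated replicate 3 made up 143 CPM. These sums are descriptions, since abundant genes dominate them.

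**Figure D5:**
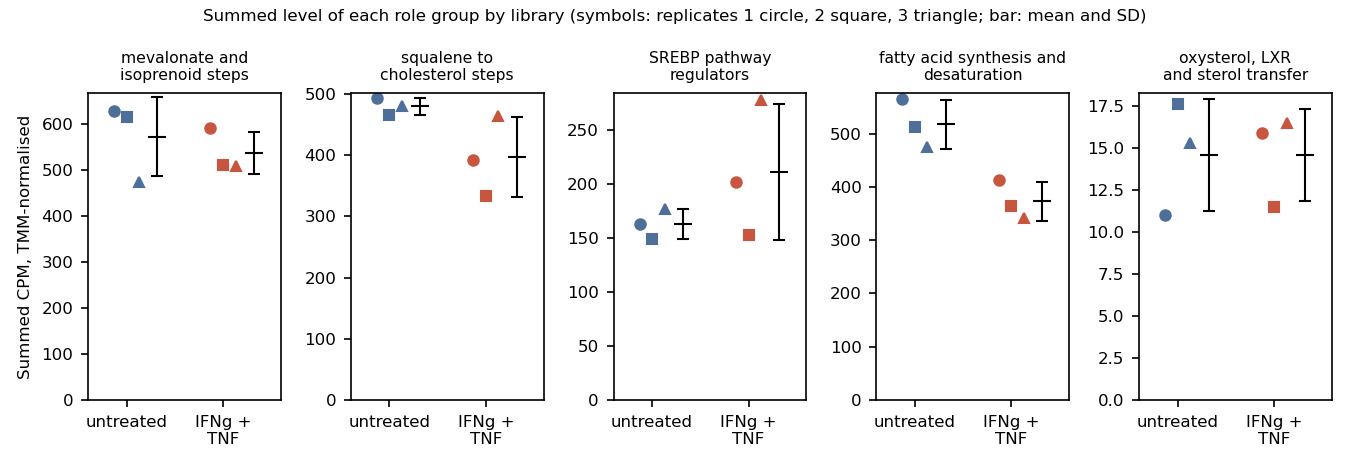
Summed CPM of the genes of each role (y axis, from 0) in the 3 untreated (blue) and 3 cytokine-treated (red) libraries, with the mean and SD beside them. The fatty acid sums run from 474 to 565 CPM in untreated and from 342 to 413 CPM in treated libraries, while the mevalonate sums overlap.

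Other genes of sterol metabolism were read from a list of 30, of which 24 were tested. CYP27A1, the mitochondrial sterol 27-hydroxylase, had 18.9, 21.5 and 29.4 CPM in untreated and 7.80, 7.67 and 14.0 CPM in treated libraries (log2 fold change -1.25, edgeR adjusted p 0.0435). Its p was 0.137 and 0.175 without treated replicate 1 or 2, and 0.113 and 0.052 without untreated replicate 2 or 3.

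LRP8, a receptor of the lipoprotein receptor family, was called higher, with 6.28, 4.91 and 4.10 CPM in untreated and 11.0, 10.2 and 18.8 CPM in treated libraries. On the log2 scale the change was 1.38 (edgeR adjusted p 0.0439). The p was 0.0709, 0.0591 and 0.195 without treated replicate 1, 2 or 3, 0.155 and 0.0559 without untreated replicate 2 or 3, 0.062 with library totals and 0.0581 in limma voom.

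From a list of 36 other fatty acid genes, 31 were tested, with 1 called higher and 1 lower, near the shares of all tested genes (5.58% and 2.55%). ACSL5, an acyl-CoA synthetase that activates long-chain fatty acids, had 11.3, 13.7 and 15.3 CPM in untreated and 100.5, 96.8 and 98.4 CPM in treated libraries. The replicates were tight and far apart between groups, 7.32-fold higher (log2 fold change 2.87, SE 0.20, edgeR adjusted p 3.62e-05). ACSL5 was called in all 14 alternative fits, with adjusted p from 2.59e-28 to 0.000727. SCD5, a second stearoyl-CoA desaturase, had 14.9, 19.6 and 19.6 CPM in untreated and 10.1, 7.90 and 7.99 CPM in treated libraries. Its log2 fold change was -1.06 with an edgeR adjusted p of 0.0352, which was 0.0629, 0.142 and 0.146 without treated replicate 1, 2 or 3 and 0.154 without untreated replicate 2.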

How the data were processed

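Per the file headers, the authors deposited raw counts of reads over each gene's exons, from featureCounts 2.0.1 in long-read, strand-specific mode with the annotation of Ensembl 105 (GRCh38). The submitters' processing notes list version 2.0.0 of that program, minimap2 2.24 and SAMtools 1.16. Reads had Q above 7, per the series design text. Groups and replicate numbers came from the sample titles, and the labels name no sequencing date. The words in the headers' alignment names include dmso, which no label mentions. A chi-square test of replicate pairs gave 3.48 to 24.7 for each degree of freedom, above counting noise. The lowest was for untreated replicates 1 and 2, the highest for untreated replicates 1 and 3. Each library counted once, since the titles name biological replicates.

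Counts of all genes were fitted with edgeR 4.0.16 in R 4.3.3 (quasi-likelihood F test, TMM, filterByExpr, Benjamini-Hochberg adjustment over 10067 genes, threshold 0.05, with no term but group). TMM-normalised library sizes also scale the CPM values. SE is the size of the log2 fold change over the root of F. Symbols came from a name table for 61369 identifiers and from GENCODE 29 for 159 others. The code was tested on simulated data.

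All 35 members are named, and of the 2 lists of other genes those past the threshold, except for a result that is not reported here. Members and lists were chosen with earlier results of these data known. Alternatives were DESeq2 1.42.0 and its size factors, library totals, 2 filters, limma 3.58.1 voom, a replicate block and each library left out. A surrogate variable (sva 3.50.0) was added after seeing the data.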

Additional observations from a re-analysis of the deposited data

How the results depend on the processing

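With 3 libraries a group, most calls here lay near the threshold, and low counts kept 4 members from being tested. Of 19158 genes tested with no filter, 1328 were called (849 higher, 479 lower). Of 10067 genes, 1513 were called with the replicate number as a block (907 higher, 606 lower) and 1845 with a surrogate variable (1080 higher, 765 lower). Without 1 library the count ran from 455 to 1178 (358 to 733 higher, 96 to 445 lower), lowest without treated replicate 3 and 465 without untreated replicate 2. Members called higher were 1 with no filter (INSIG1), 1 with the block (INSIG1) and 2 with the surrogate variable (INSIG1 and STARD4). Members called lower were 1 with DESeq2 size factors, 1 with the stricter filter and 4 in DESeq2. Those fits called 252 of 10067, 293 of 11184 and 316 of 10067 genes lower. With the block 4 members were called lower (606 of 10067 genes), and with the surrogate variable 5 were (765 of 10067 genes). Without 1 library, 0 to 3 members were called lower. Of other sterol genes, 0 were called higher with library totals or limma voom and 2 with no filter, the block or the surrogate variable. Without 1 library, 0 to 1 were called higher and 0 to 1 lower. Of other fatty acid genes, 2 were called lower with the block and 0 to 2 without 1 library. The cause was not tested.

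Same-numbered libraries deviated together for numbers 1 and 3 (correlations of 0.651 and 0.374) but not for number 2 (-0.004). These values do not decide whether equal numbers are pairs. No label ties equal numbers together, so the main fit took no pairs. Treated replicate 2 correlated best with untreated replicate 3, at 0.413. The block gave DHCR7 an edgeR adjusted p of 0.00158 and FADS2 one of 0.0143.

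No called member changed sign in any fit. Uncalled members near 0 did. With library totals, log2 fold changes were 0.00 for ACAT2, -0.03 for HSD17B7, -0.08 for LSS and 0.00 for SREBF1. In limma voom they were 0.01 for HMGCS1 and -0.04 for LSS, with the block -0.02 for LSS, and with the surrogate variable 0.03 for HMGCS1. Leaving out 1 library turned the direction of 14 uncalled members, with log2 fold changes from -0.11 to 0.29 for ACAT2, -0.50 to 0.67 for HMGCS1, -0.17 to 0.14 for PMVK, -0.50 to 0.19 for IDI1 and -0.25 to 0.03 for FDPS. They ran from -0.20 to 0.07 for FDFT1, -0.25 to 0.14 for SQLE, -0.33 to 0.34 for LSS, -0.43 to 0.31 for MSMO1, -0.19 to 0.29 for HSD17B7 and -1.60 to 0.34 for SC5D. They ran from -0.03 to 0.36 for SREBF1, -0.10 to 0.01 for FADS1 and -0.97 to 0.26 for LPIN1. Untreated replicate 3 was the library left out in 8 of the 14, and without it the median of the squalene to cholesterol genes was 0.13. With no filter the median of the oxysterol group was -0.31. Allowing 1 mismatch, TCACNCCAC was in 12 of 31 member windows and 24.2% of all windows.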

Other observations

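Ratios within a library do not depend on how libraries are scaled, and they were looked at after the values were seen. The ratio of FADS2 to FADS1 was 1.48, 1.53 and 1.53 in untreated replicates 1, 2 and 3 and 1.12, 0.867 and 0.913 in treated replicates 1, 2 and 3. The summed fatty acid genes stood to the summed 18 sterol enzymes as 0.503, 0.475 and 0.497 in untreated and 0.420, 0.431 and 0.351 in treated libraries. For both ratios every treated library lay below every untreated one, and neither was tested because the genes were picked from these values.

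Treated replicate 3 was the highest treated library in 15 of the 31 tested members, or 48.4%, against 27.3% of all tested genes. Treated replicate 2 was the highest in 4, or 12.9%, against 34.1% of all tested genes. Untreated replicate 3 was the highest untreated library in 15 members, or 48.4%, against 45.4% of all tested genes. These shares are descriptions of 6 libraries, and they were not tested.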
